A study of Mus musculus with 9 samples.

Results

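The genes described here are 46 genes of the cell division cycle and of DNA replication, chosen by name from the symbols that the platform annotation gives to probe sets, and read in sorted mouse podocytes on 9 arrays. Of the 46, 45 were measured, among 18193 genes in all, and 1 (Ccnb1, cyclin B1) is not analysed here. The study compared podocytes of 5 OVE26 mice, labelled diabetic with the genotype OVE-GFP, and of 4 FVB mice, labelled normal with the genotype wild type. All were aged 3 to 4 months and on the FVB background. OVE26 is a transgenic line with early diabetes from damage to the insulin-producing beta cells, and the design text says that mice with an eGFP transgene in podocytes were crossed to it. Podocytes were sorted by their fluorescence from trypsin-digested glomeruli, so the gate depends on that transgene. The labels do not name its promoter or the reporter of the wild type mice.

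The division cycle runs through a phase of growth (G1), the copying of DNA (S phase), a second gap (G2) and mitosis. Cyclin D kinases release the E2F factors from the retinoblastoma protein, E2F factors switch on genes for making nucleotides and copying DNA, and later genes for mitosis are switched on through promoter elements bound by NF-Y and by the MuvB complexes. Mature podocytes, the cells that hold up the filtration slits of the glomerulus, are known as cells that have left the cycle and keep inhibitors of cyclin-dependent kinases high.

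Values are log2 intensities of 1 probe set a gene, and differences are OVE26 minus FVB on that scale. The 9 arrays had median log2 intensities between 5.07 and 5.15, and Pearson's r between any pair of arrays lay between 0.960 and 0.989 over probe sets, which do not count as replicates. With this number of arrays the precision is limited, a typical gene's difference having a standard error of 0.16 (median over all genes). The 25th percentile of each array (3.31 on average) is used as the level that is not told from background, and is called the floor below. All 15 measured podocyte markers had OVE26 means of 8.92 or more and FVB means of 9.52 or more. Markers of other kidney cells were also read, with means of up to 11.16 in OVE26 and 10.94 in FVB mice for the markers of loop, distal tubule and collecting duct, 10.25 and 10.48 for proximal tubule, 11.05 and 11.29 for glomerular endothelium, and 11.37 and 11.62 for mesangium and smooth muscle. The sorted RNA comes from many cells, so a larger share of dividing cells and more RNA per cell cannot be told apart.

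Of the cell cycle and replication genes measured, 3 were higher in OVE26 than in FVB podocytes, and the others did not pass the test. The 3 were Rrm2, which encodes the small subunit of ribonucleotide reductase, Gmnn, which encodes the replication licensing inhibitor geminin, and Mki67, which encodes the proliferation antigen Ki-67. By limma with Benjamini-Hochberg adjustment over all 18193 genes, 3 of 45 measured genes (6.67%) were higher at an adjusted p under 0.05, 0 were lower and 42 did not pass. Over all genes tested 0.473% were higher and 0.132% lower at that threshold. The set was chosen with earlier results of these data known, in which Rrm2 had been called, so these shares are a description. At an unadjusted p under 0.05, 8 of the 45 (17.8%) were higher and 2 (4.44%) were lower, against 9.03% and 6.07% of all genes. Every OVE26 array lay above every FVB array for 4 of the 45 (8.89%), and below for 1 (2.22%), against 3.64% and 2.62% of all genes. The median difference of the 45 genes was 0.22, against 0.01 over all genes. Of the 45 differences 34 were positive (75.6%, against 52.6% of all genes).

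Many of these genes were dim. Of the 45, 20 had a mean at or above the 40th percentile of gene means (5.03) and 25 lay below it, 4 of them with a mean under the floor. All 3 genes that passed were among the 20, Rrm2 only through its OVE26 values, and as a description the 20 had a median difference of 0.25, against -0.00 over the 10916 genes at or above that level. On single arrays, between 41 and 42 of the 45 genes were above the floor in OVE26 podocytes and between 36 and 40 in FVB podocytes. Their spread between mice was wide, with a median SD of 0.32 in OVE26 and 0.23 in FVB arrays, against 0.25 and 0.19 over all genes.

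**Figure D1:**
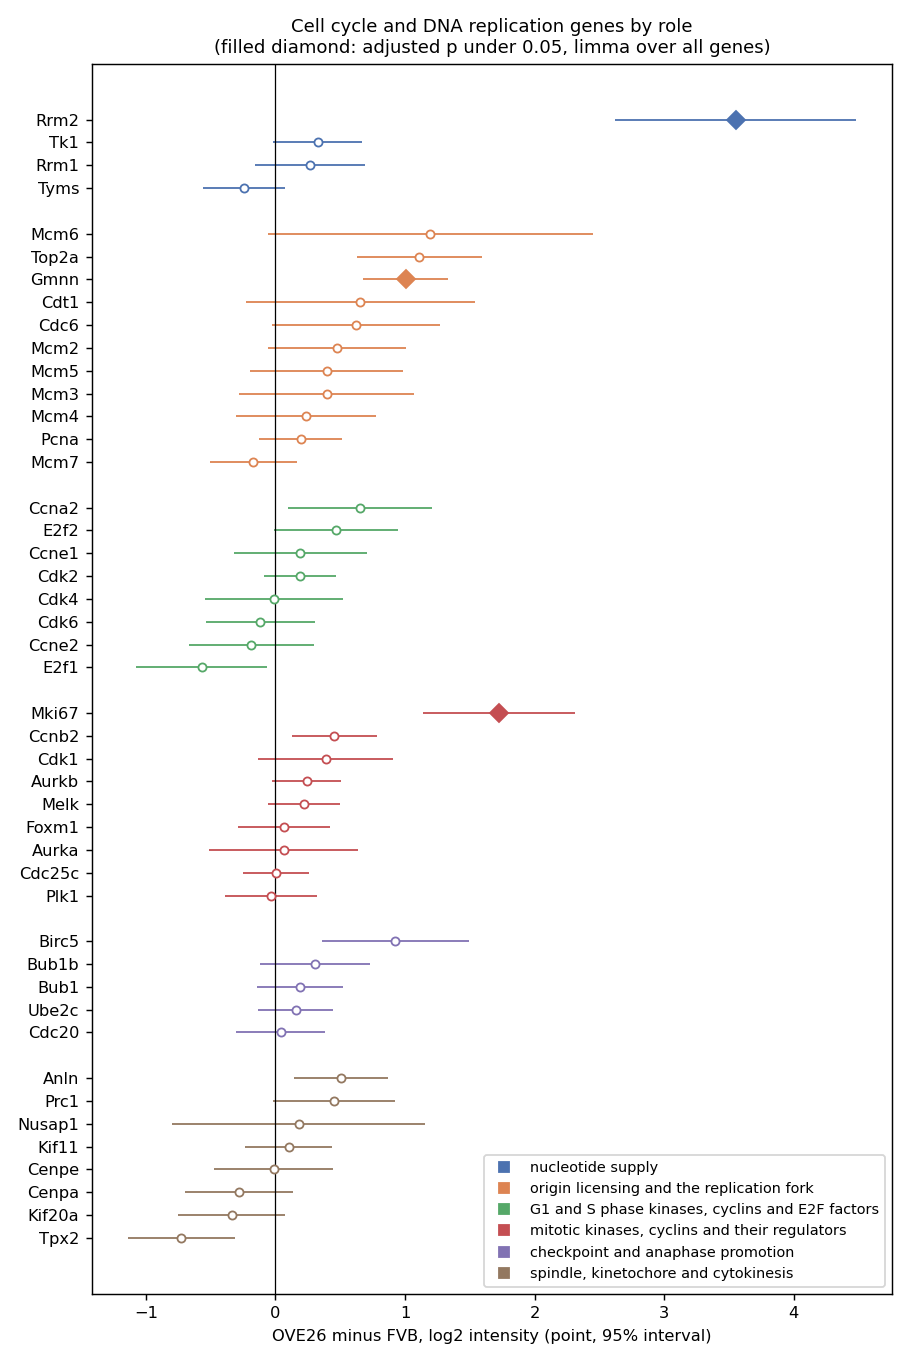
Difference between OVE26 and FVB podocytes for each of the 45 measured genes (horizontal axis, OVE26 minus FVB in log2 intensity), grouped and coloured by role. Points are estimates and bars 95% intervals from limma with 5 OVE26 and 4 FVB arrays. Filled diamonds mark Rrm2, Gmnn and Mki67, the 3 genes with an adjusted p under 0.05, and the other intervals lie mostly around small positive values.

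Ribonucleotide reductase and the 2 other enzymes of nucleotide supply come first. Ribonucleotide reductase makes the deoxynucleotides of DNA from ribonucleotides and needs a large subunit, Rrm1, and a small one, Rrm2, whose RNA and protein are known to peak in S phase. Rrm2 (chr12:24708254-24714146, GRCm38.p6) had log2 intensities of 6.29, 7.37, 6.77, 7.35 and 6.31 in OVE26 mice 1 to 5, against 2.52, 4.62, 2.98 and 2.95 in FVB mice 1 to 4. On the probe set used, all 5 OVE26 arrays were far above the floor. There 3 of the 4 FVB arrays were under it, FVB mouse 2 being the exception. The difference was 3.55 (SE 0.42, 95% interval 2.62 to 4.48, adjusted p = 0.00978 by limma). Taking on each FVB array the higher of its floor and its own value, Rrm2 was 9.04-fold higher in OVE26 podocytes. This is a point estimate for 1 probe set and not a lower limit.

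The partner subunit did not pass the test. Rrm1 had 9.36, 8.48, 8.95, 9.04 and 8.82 in OVE26 mice, against 8.70, 8.35, 9.04 and 8.57 in FVB mice. The groups overlapped, and the difference was 0.27 (SE 0.19, 95% interval -0.16 to 0.69, adjusted p = 0.571 by limma). Rrm2b, which is no member of the set, the p53-regulated small subunit that non-dividing cells are known to use, differed by -0.10 (adjusted p = 0.844 by limma). Thymidine kinase Tk1, which salvages thymidine, differed by 0.32 (adjusted p = 0.360), and thymidylate synthase Tyms, which makes thymidylate anew, by -0.24 (adjusted p = 0.471 by limma). Of the 4 nucleotide genes 1 passed the test, and their median difference was 0.30.

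The size of the Rrm2 difference depended on the probe set. The brightest of its 3 probe sets, 1434437_x_at, gave the values above. Its name ends in _x_at, the array maker's mark for probes that may also bind other transcripts. This set was the brightest of the 3 only through its OVE26 values. In FVB mice its mean was the lowest of the 3, at 3.27, against 3.72 for 1448226_at and 3.89 for 1416120_at. The second, 1448226_at, had 4.95, 5.04, 4.60, 5.89 and 4.69 in OVE26 mice, against 3.20, 4.74, 2.93 and 4.00 in FVB mice. FVB mouse 2 again stood above the other FVB mice, and here it overlapped with 2 of the OVE26 mice. That set differed by 1.31 (adjusted p = 0.161 by limma over 34945 probe sets), and the third, 1416120_at, by 0.39 (adjusted p = 0.436). The third set had 4.06, 4.335, 3.73, 4.73 and 4.53 in OVE26 mice, against 4.06, 3.85, 3.59 and 4.06 in FVB mice. Every FVB array was above the floor on that set. With the mean of the 3 sets in place of the brightest, the difference was 1.75 (adjusted p = 0.0252 by limma).

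**Figure D2:**
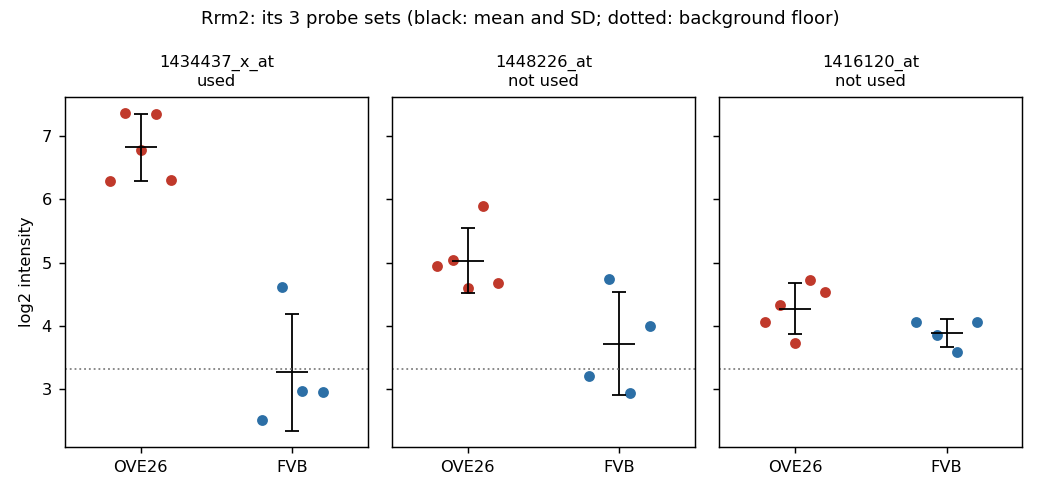
Log2 intensity of the 3 Rrm2 probe sets in OVE26 (red) and FVB (blue) podocytes, 1 point per mouse, with mean and SD in black and the mean floor of 3.31 as a dotted line. All 3 sets have a higher mean in OVE26 mice, with differences of 3.55, 1.31 and 0.39, and the groups do not overlap in the first only.

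The next 11 genes license origins and work at the replication fork, and 10 of their 11 differences were positive, with a median of 0.47. Geminin binds Cdt1 and so keeps an origin from being licensed again within the same S phase, and it is degraded in late mitosis. Gmnn (chr13:24751845-24761937, GRCm38.p6) had 7.30, 7.50, 7.05, 7.50 and 7.27 in OVE26 mice, against 5.99, 6.26, 6.57 and 6.45 in FVB mice. The groups did not overlap. The difference was 1.01 (SE 0.15, 95% interval 0.68 to 1.33, adjusted p = 0.0244 by limma), a 2.01-fold higher level in OVE26 podocytes, and Gmnn has 1 probe set here.

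Topoisomerase II alpha, encoded by Top2a, untangles replicated chromosomes and is made mainly in S phase, G2 and mitosis. Top2a (chr11:98992947-99024199, GRCm38.p6) had 4.45, 4.49, 4.17, 4.57 and 5.38 in OVE26 mice, against 3.48, 3.37, 3.69 and 3.46 in FVB mice. The groups did not overlap, and the FVB values, at most 3.69, lay close to the floor. The difference was 1.11 (SE 0.22, adjusted p = 0.0549 by limma), which did not pass the threshold. Its 2 other probe sets differed by 0.23 and -0.10. The set used was the brightest of the 3 only through its OVE26 values. In FVB mice its mean was 3.50, against 3.87 for 1427724_at.

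The helicase that unwinds DNA at the fork is built from Mcm2 to Mcm7, of which 0 passed the test and 0 had an unadjusted p under 0.05. Mcm6 had 4.55, 6.40, 6.96, 4.68 and 5.84 in OVE26 mice, against 4.99, 5.17, 3.19 and 4.61 in FVB mice. OVE26 mice 1 and 4 lay inside the FVB range and the other 3 above it. The difference of 1.20 carried a standard error of 0.56 (adjusted p = 0.357 by limma). Mcm2 had 4.35, 5.40, 5.67, 4.83 and 5.21 in OVE26 mice, against 4.52, 4.58, 4.54 and 4.83 in FVB mice, with OVE26 mouse 1 the lowest of all 9. The Mcm2 difference was 0.47 (adjusted p = 0.396 by limma). Mcm7 had 8.27, 8.99, 8.70, 8.88 and 8.68 in OVE26 mice, against 8.68, 8.90, 8.92 and 9.0 in FVB mice, and differed by -0.17 (adjusted p = 0.662 by limma). All 4 probe sets of Mcm7 gave a negative difference. Mcm3, Mcm4 and Mcm5 differed by 0.39, 0.24 and 0.39.

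The sliding clamp that holds DNA polymerase on its template, Pcna, had 10.28, 9.78, 10.45, 10.40 and 10.34 in OVE26 mice, against 10.07, 10.14, 9.95 and 10.05 in FVB mice. Pcna is also used in DNA repair, and its signal was high in every mouse of both groups. OVE26 mouse 2 was the lowest of all 9 and the other 4 OVE26 mice lay above every FVB mouse. The Pcna difference was 0.20 (95% interval -0.12 to 0.52, adjusted p = 0.583 by limma). The origin loaders Cdt1 and Cdc6, which bring the helicase to origins, differed by 0.66 and 0.62 (adjusted p = 0.483 and 0.355 by limma). Cdc6 was under the floor on all 4 FVB arrays and on 3 of the 5 OVE26 arrays.

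**Figure D3:**
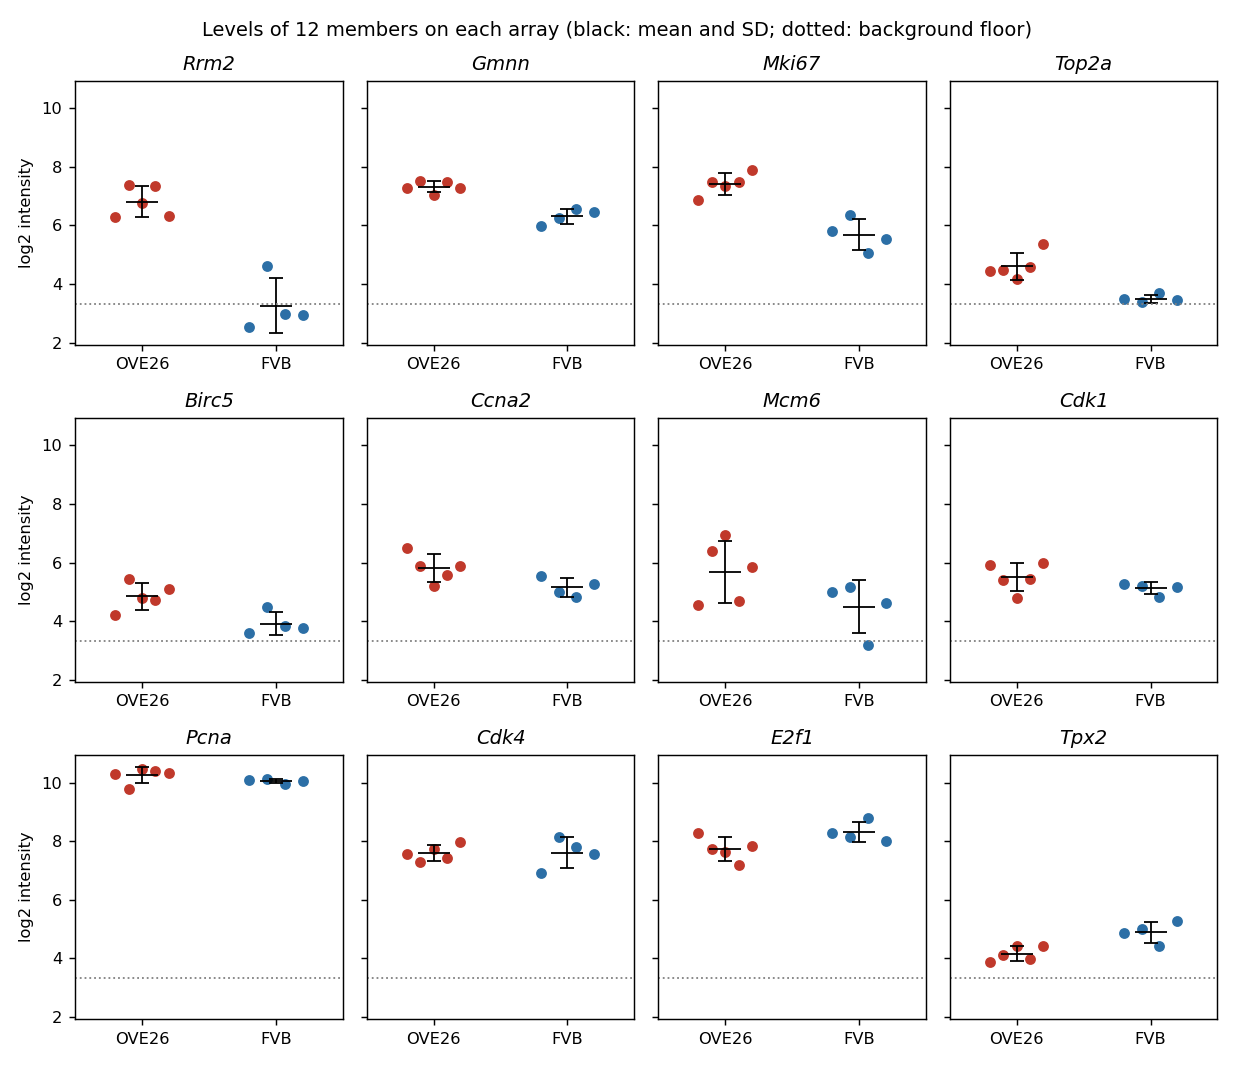
Log2 intensity of 12 genes in OVE26 (red) and FVB (blue) podocytes, 1 point per mouse, with mean and SD in black and the mean floor of 3.31 as a dotted line. Rrm2, Gmnn, Mki67 and Top2a have no overlap between the groups with OVE26 above, Tpx2 has none with OVE26 below, and the other 7 overlap.

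The 8 kinases, cyclins and E2F factors of G1 and S phase were split, with 4 positive and 4 negative differences, a median of 0.09 and 0 that passed (1 higher and 1 lower at an unadjusted p under 0.05). Cyclin A2, encoded by Ccna2, pairs with Cdk2 in S phase and with Cdk1 in G2. Ccna2 had 6.51, 5.88, 5.21, 5.57 and 5.87 in OVE26 mice, against 5.54, 4.98, 4.83 and 5.27 in FVB mice. OVE26 mouse 3 was lower than 2 of the FVB mice and the other 4 OVE26 mice lay above every FVB mouse. The difference of 0.65 (95% interval 0.10 to 1.21) had an adjusted p of 0.250 by limma. E2f1, the factor that activates S-phase genes, ran the other way, with 8.29, 7.73, 7.64, 7.18 and 7.83 in OVE26 mice and 8.28, 8.13, 8.80 and 8.01 in FVB mice. All OVE26 mice but mouse 1 were under every FVB mouse, and the difference was -0.57 (95% interval -1.08 to -0.06, adjusted p = 0.273 by limma). All 3 probe sets of E2f1 gave a negative difference.

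Of the kinases themselves 0 had an unadjusted p under 0.05. Cdk2, the partner of cyclins E and A, had 5.27, 4.80, 5.02, 4.86 and 4.88 in OVE26 mice, against 4.86, 4.55, 4.83 and 4.88 in FVB mice, a difference of 0.19 (95% interval -0.09 to 0.47, adjusted p = 0.535 by limma). Cdk4, the partner of the D cyclins, had 7.55, 7.28, 7.73, 7.42 and 7.98 in OVE26 mice, against 6.90, 8.14, 7.80 and 7.56 in FVB mice. The Cdk4 groups overlapped throughout, and its difference of -0.01 (95% interval -0.54 to 0.52, adjusted p = 0.991 by limma) changed sign under several other settings, as with the mean of its probe sets (0.07). Cdk6, the other partner of the D cyclins, and the S-phase cyclins Ccne1 and Ccne2 differed by -0.12, 0.19 and -0.19. E2f2, an activating E2F factor, differed by 0.47 (adjusted p = 0.346 by limma).

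Of the 9 measured genes of mitotic kinases, cyclins and their regulators 1 passed, and 8 of the 9 differences were positive with a median of 0.22. Ki-67 coats mitotic chromosomes and is present in cycling cells in all phases but not in resting ones, so it serves as the usual marker of proliferation. Mki67 (chr7:135689784-135716450, GRCm38.p6) had 6.87, 7.48, 7.36, 7.49 and 7.89 in OVE26 mice, against 5.81, 6.35, 5.07 and 5.54 in FVB mice. The groups did not overlap, and FVB mouse 2 was the highest of its group, as it was for Rrm2. The difference was 1.73 (SE 0.26, 95% interval 1.14 to 2.31, adjusted p = 0.0254 by limma), a 3.31-fold higher level in OVE26 podocytes, from the 1 probe set of Mki67.

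Cdk1, the kinase that drives entry into mitosis, had 5.93, 5.41, 4.79, 5.44 and 5.97 in OVE26 mice, against 5.28, 5.21, 4.82 and 5.18 in FVB mice. OVE26 mouse 3 had the lowest Cdk1 level of all 9, and the difference was 0.39 (95% interval -0.13 to 0.91, adjusted p = 0.483 by limma). Its partner cyclin B2, encoded by Ccnb2, had 3.54, 3.58, 3.67, 4.09 and 3.94 in OVE26 mice, against 3.56, 3.18, 3.15 and 3.34 in FVB mice. These levels were low, with 2 of the 4 FVB arrays under the floor, and the difference was 0.46 (adjusted p = 0.180 by limma). Aurora kinases Aurka and Aurkb, which act at spindle poles and at centromeres, differed by 0.06 and 0.24. Plk1, which drives several steps of mitosis, the Cdk1 phosphatase Cdc25c, the transcription factor Foxm1 of late cell cycle genes and the kinase Melk lay between -0.04 and 0.22, with adjusted p-values from 0.443 to 0.993 by limma.

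The 5 genes of the spindle checkpoint and of anaphase promotion had 5 positive differences with a median of 0.19, and 0 passed (1 at an unadjusted p under 0.05). Survivin, encoded by Birc5, is part of the chromosomal passenger complex with Aurkb. Birc5 had 4.20, 5.44, 4.78, 4.72 and 5.09 in OVE26 mice, against 3.61, 4.47, 3.85 and 3.76 in FVB mice. FVB mouse 2 lay above OVE26 mouse 1 only, and the difference was 0.92 (95% interval 0.36 to 1.49, adjusted p = 0.125 by limma). The checkpoint kinases Bub1 and Bub1b differed by 0.19 and 0.30, with Bub1 under the floor on all 9 arrays. Cdc20, the activator of the anaphase-promoting complex, differed by 0.04 and Ube2c, the ubiquitin-conjugating enzyme of that complex, by 0.16.

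Spindle, kinetochore and cytokinesis genes held the only gene of the 45 with every OVE26 mouse under every FVB mouse. Tpx2, which activates Aurka on spindle microtubules, had 3.88, 4.12, 4.41, 3.98 and 4.41 in OVE26 mice, against 4.85, 5.00, 4.42 and 5.27 in FVB mice. The gap between the groups was narrow, with FVB mouse 3 just above OVE26 mice 3 and 5. The difference was -0.73 (95% interval -1.14 to -0.31, adjusted p = 0.108 by limma), and 2 of the 4 probe sets of Tpx2 gave a positive difference. Anillin, encoded by Anln, a scaffold of the cleavage furrow, had 2.80, 3.12, 3.06, 3.08 and 3.54 in OVE26 mice, against 2.28, 2.80, 2.71 and 2.66 in FVB mice. Its level was above the floor on 1 array only, in OVE26 mouse 5, so its difference of 0.51 (adjusted p = 0.180 by limma) lay within the range not told from background. The midzone protein Prc1, the mitotic kinesins Kif11 and Kif20a, the centromere proteins Cenpa and Cenpe and the spindle protein Nusap1 lay between -0.34 and 0.45, and the group's median was 0.04.

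Which genes passed changed when single mice were left out. Leaving out each array in turn, Rrm2 passed in 8 of 9 fits and missed without FVB mouse 3 (3.46, adjusted p = 0.0540 by limma). Gmnn passed in 5 of 9, and missed without OVE26 mouse 5 or FVB mouse 1, 3 or 4, with differences between 0.90 and 1.09 over all 9 fits and adjusted p-values of at most 0.0737. Mki67 passed in 3 of 9, and missed without OVE26 mouse 3, 4 or 5 or FVB mouse 1, 3 or 4, with differences between 1.52 and 1.95 and adjusted p-values of at most 0.0976. Top2a, which missed the threshold, passed without OVE26 mouse 5 (0.92, adjusted p = 0.0383 by limma). The count of the 45 genes that were higher ran from 0 to 3 over these fits, being 1 without FVB mouse 1, 0 without FVB mouse 3 and 1 without FVB mouse 4. Over all 18193 genes the count of higher genes was 21, 8 and 26 in these 3 fits, against 86 with all arrays.

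Xist, which is made from the inactive X chromosome, and Y-linked genes split the mice unevenly between the groups. Xist lay above the mean of the Y-linked genes in OVE26 mice 2, 3 and 5 and in FVB mouse 2, and below it in the other 5 mice. Among mice with Xist above, Rrm2 was 2.20 higher in the 3 OVE26 mice than in the 1 FVB mouse, with no spread to set it against. Among those with Xist below, it was 3.51 higher in 2 OVE26 than in 3 FVB mice. Those FVB values were all under the floor and were taken at it. In the same order the differences were 1.01 and 1.06 for Gmnn, 1.23 and 1.71 for Mki67, and 1.31 and 0.97 for Top2a. With that contrast as a covariate, Rrm2 differed by 3.30 (adjusted p = 0.0250 by limma), and the same 3 genes passed.

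Markers of other kidney cells moved with the groups beside these genes. The 19 measured markers of the loop of Henle, distal tubule and collecting duct had a mean centred level of 0.62 ± 0.56 in OVE26 mice (SD, n = 5) and -0.78 ± 0.57 in FVB mice (SD, n = 4), and ranged from 0.22 to 1.60 in OVE26 mice and from -1.47 to -0.08 in FVB mice (difference 1.40, 2-sided exact permutation p = 0.00794, the smallest the design allows, adjusted over 9 marker lists 0.0357). All 19 had a mean above the floor, 14 were higher at an unadjusted p under 0.05 and 3 passed, Fxyd4 (2.40), Atp6v0d2 (2.88) and Slc26a4 (2.14). The 11 parietal epithelial markers differed by 1.00 (exact permutation p = 0.00794, adjusted 0.0357), with 3 keratin genes that passed (Krt8, Krt18 and Krt19). At an unadjusted p under 0.05, 6 of the 11 were higher (54.5%, against 9.03% of all genes). At that level 1 was lower (-0.49, 9.09% of the list, against 6.07% of all genes). OVE26 mouse 2 had the highest distal score, 1.60, and FVB mouse 2 had the highest distal score of the FVB mice, -0.08. FVB mouse 2 also had the highest Rrm2 and Mki67 of the FVB mice. It also had their highest parietal score (-0.11) and macrophage score (-0.25), and it was the FVB mouse with Xist above. Among OVE26 mice, Rrm2 was highest in mouse 2 (7.37), with nearly the same level in mouse 4 (7.35), whose distal score was 0.42. Mki67 was highest (7.89) in mouse 5, whose distal score was 0.27. With the distal score as a covariate 0 of the 45 genes passed in limma (7 higher and 3 lower at an unadjusted p under 0.05), as did 0 of all 18193 genes, and Rrm2 differed by 2.31 (adjusted p = 0.395 by limma). In that fit Gmnn differed by 1.00, Mki67 by 1.13 and Top2a by 1.43, with adjusted p-values of 0.445, 0.534 and 0.416 by limma. The parietal score ran from 0.16 to 0.97 in OVE26 mice and from -0.86 to -0.11 in FVB mice. It was not used as a covariate. Because the distal and the parietal score each separate the groups without overlap, the diabetic state cannot be told apart from either in these arrays.

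The 23 macrophage and dendritic markers averaged 0.33 ± 0.43 in OVE26 mice (SD, n = 5) and -0.42 ± 0.15 in FVB mice (SD, n = 4), from -0.32 to 0.87 and from -0.54 to -0.25 (difference 0.75, exact permutation p = 0.0238, adjusted 0.0536). Of the 23 differences, 18 were positive and 5 negative, down to -1.35. At an unadjusted p under 0.05, 11 were higher (47.8%, against 9.03% of all genes) and 1 was lower (4.35%, against 6.07%). After adjustment 0 passed, and 4 had a mean under the floor. OVE26 mouse 2 had a macrophage score of -0.32, inside the FVB range, and Rrm2 at 7.37 and Mki67 at 7.48. These values are of 1 mouse, which also had the highest distal score (1.60) and the lowest proximal tubule score (-2.0). The part of macrophage RNA was not tested in any mouse beyond the fit with the macrophage score. Once the macrophage score entered the fit as a covariate, the differences were 3.54 for Rrm2, 1.22 for Gmnn and 1.58 for Mki67, with adjusted p-values of 0.141, 0.133 and 0.194 by limma. The T, NK and B cell markers, of which 5 of 15 had a mean under the floor, differed by -0.02 (exact permutation p = 0.619). The podocyte markers differed by -0.35 (exact permutation p = 0.0238, adjusted 0.0536), with 0 of 15 genes that passed and 7 lower at an unadjusted p under 0.05.

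**Figure D4:**
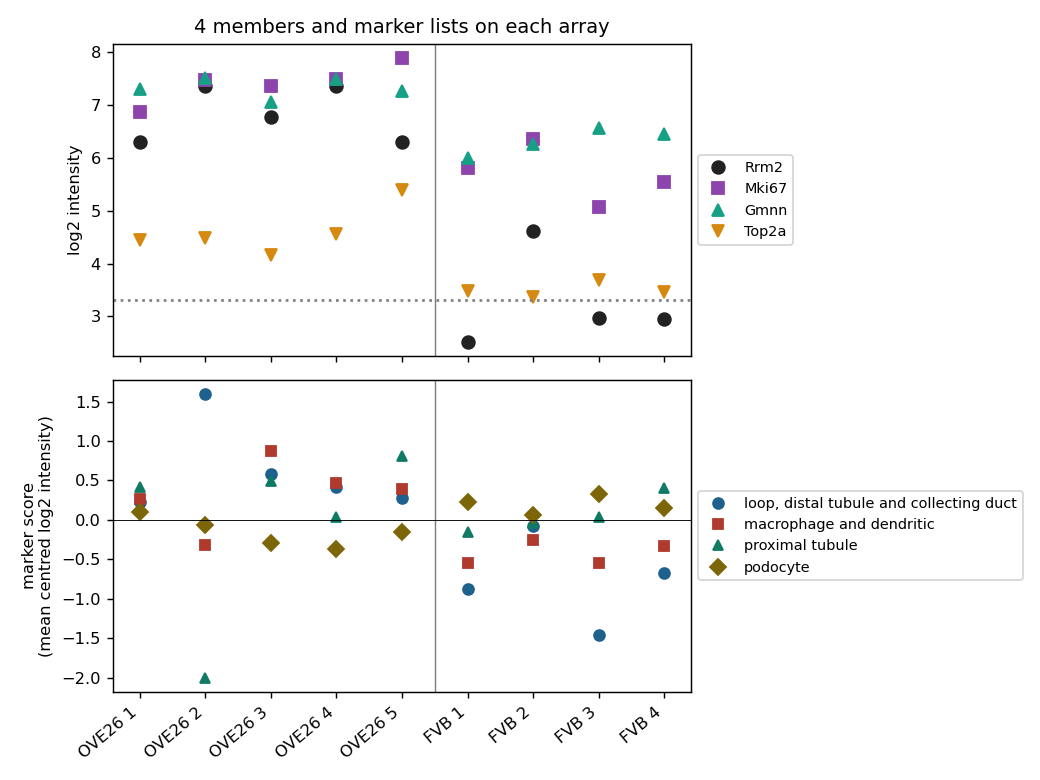
Log2 intensity of Rrm2, Mki67, Gmnn and Top2a (upper panel, dotted line at the mean floor of 3.31) and mean centred level of 4 marker lists (lower panel) on each array, with the 5 OVE26 mice left of the 4 FVB mice. OVE26 mouse 2 combines the highest distal score (1.60), the lowest proximal tubule score (-2.0) and a macrophage score of -0.32 with an Rrm2 level of 7.37. OVE26 mouse 4 has nearly the same Rrm2 level (7.35) with a distal score of 0.42 and a macrophage score of 0.47. The cell source of the Rrm2 RNA was not tested.

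Promoters are shown for 3 of the 4 genes whose OVE26 and FVB mice did not overlap with OVE26 above, Rrm2, Mki67 and Top2a, to show which known cell cycle elements they share. The sequences are RefSeq promoters of the GRCm38.p6 build, each from 250 bases before to 50 after the transcription start that this table uses, written from 5′ to 3′ on the gene's strand, with the pentamer CCAAT (bound by NF-Y) or its complement ATTGG and the hexamer TTTGAA (the core of the cell cycle homology region) or its complement TTCAAA in capitals. For Mki67 and Top2a that start lies a little inside the gene span given above.
Rrm2, chr12:24708004-24708303, + strand: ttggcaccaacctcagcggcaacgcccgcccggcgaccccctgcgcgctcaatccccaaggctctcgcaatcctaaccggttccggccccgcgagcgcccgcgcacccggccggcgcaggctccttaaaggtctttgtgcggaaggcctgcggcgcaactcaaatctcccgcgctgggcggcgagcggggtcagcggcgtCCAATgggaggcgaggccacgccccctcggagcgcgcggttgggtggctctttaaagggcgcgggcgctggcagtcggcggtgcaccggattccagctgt
Mki67, chr7:135716330-135716629, - strand: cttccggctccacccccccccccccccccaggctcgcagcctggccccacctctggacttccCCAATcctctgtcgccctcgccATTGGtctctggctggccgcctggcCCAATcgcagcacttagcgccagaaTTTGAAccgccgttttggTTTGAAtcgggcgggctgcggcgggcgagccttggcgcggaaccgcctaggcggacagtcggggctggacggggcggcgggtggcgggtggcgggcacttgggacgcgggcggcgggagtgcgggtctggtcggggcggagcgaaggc
Top2a, chr11:99024140-99024439, - strand: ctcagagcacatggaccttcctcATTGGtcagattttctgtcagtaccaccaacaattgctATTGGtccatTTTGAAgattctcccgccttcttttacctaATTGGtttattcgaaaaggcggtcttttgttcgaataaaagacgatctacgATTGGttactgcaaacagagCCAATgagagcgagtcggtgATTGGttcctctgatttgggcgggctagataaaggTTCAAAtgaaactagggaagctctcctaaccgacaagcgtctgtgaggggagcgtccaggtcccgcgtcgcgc
The Rrm2 promoter holds 1 CCAAT, beginning 50 bases before that start, and 0 TTTGAA. The Mki67 promoter holds 3 CCAAT and 2 TTTGAA, and the Top2a promoter 6 CCAAT and 2 TTTGAA. No match overlapped another in these 3 promoters. The search read both strands.

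Of the 45 measured genes 36 had a promoter entry. CCAAT occurred in 24 of the 36 (66.67%), against 41.06% of the 27025 genes with a promoter of the same length, and TTTGAA in 15 (41.67%), against 20.23%. Both occurred in 14 of the 36 (38.89%), against 7.97% of all genes, and those 14 include Cdk1, Ccnb2, Plk1, Aurka, Bub1b, Cdc20 and Ube2c beside Mki67 and Top2a. Of 3 octamers that E2F factors are known to bind, TTTCCCGC occurred in 4 (11.11%, against 1.24%), TTTGGCGC in 5 (13.89%, against 0.58%) and TTTCGCGC in 4 (11.11%, against 0.37%). Any of the 3 occurred in 9 (25%, against 2.12%), among them Mcm3, Mcm5, Mcm6, Mcm7, Cdc6 and Cdt1, and in 0 of the 3 promoters printed. A match is a run of letters and says nothing of binding in podocytes. The genes with both CCAAT and TTTGAA included ones with differences from 1.73 (Mki67) to -0.28 (Cenpa).

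The other genes of the pathway, taken from a list of replication and mitosis genes that holds none of the 46, gave 120 measured genes, of which 1 was higher (0.833%, against 0.473% of all genes) and 0 lower at an adjusted p under 0.05. Their median difference was 0.13, and 20 were higher (16.7%, against 9.03%) and 5 lower (4.17%, against 6.07%) at an unadjusted p under 0.05. The 1 gene was Cdca8, which encodes borealin, the partner of survivin in the passenger complex, with 7.65, 7.63, 6.88, 7.08 and 7.72 in OVE26 mice, against 6.33, 6.49, 6.08 and 6.03 in FVB mice. The groups did not overlap, and the difference was 1.16 (SE 0.20, adjusted p = 0.0382 by limma). Cdca8 passed in 2 of the 9 fits that each left out 1 array, those without OVE26 mouse 3 and without FVB mouse 2. Cks1b, a small subunit of cyclin-dependent kinase complexes, had 9.79, 9.87, 9.22, 8.80 and 9.13 in OVE26 mice, against 8.03, 8.12, 8.38 and 8.26 in FVB mice, and differed by 1.16 (adjusted p = 0.0510 by limma). Orc1, the largest subunit of the origin recognition complex, had 6.15, 5.40, 4.93, 4.71 and 5.52 in OVE26 mice, against 6.53, 6.60, 6.97 and 6.82 in FVB mice, and differed by -1.39 (adjusted p = 0.0516 by limma).

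Neither of these passed, though every OVE26 mouse lay above every FVB mouse for Cks1b and below for Orc1. Such separation held for 4 of the 120 genes above (3.33%) and for 2 below (1.67%), shares no larger than the 3.64% and 2.62% of all genes. The others, named after their values were seen, were Fen1, the nuclease that trims Okazaki fragments (1.04), and Gins2, a subunit of the replicative helicase (0.62), above, and Cdc27, a subunit of the anaphase-promoting complex (-0.35), below. Replication histone genes are not analysed here.

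The brakes of the cycle and related genes, a list of 16 that holds the inhibitors of cyclin-dependent kinases, the D cyclins, retinoblastoma relatives and Rrm2b, had 15 measured genes, of which 0 passed in limma and 1 was at an unadjusted p under 0.05. That gene was Cdkn1a, the p53-induced inhibitor p21, with 8.60, 10.03, 10.06, 11.24 and 9.26 in OVE26 mice, against 7.52, 8.82, 8.08 and 9.07 in FVB mice. OVE26 mouse 1 lay within the FVB range and OVE26 mouse 4 stood highest, and the difference was 1.47 (SE 0.50, adjusted p = 0.205 by limma). Cdkn1c, the inhibitor p57 that podocytes are known to keep high, had means of 12.41 in OVE26 and 12.35 in FVB mice. E2f5, a repressive E2F factor, differed by -0.26 and the D cyclin Ccnd1 by 0.35 (adjusted p = 0.457 and 0.581 by limma). Rrm2b and Cdkn1c are named for their known roles, after their values were seen.

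Probe sets of the same gene were compared for the 32 of the 45 genes that have several. Of their 56 other probe sets, 38 gave a difference of the same sign as the brightest one and 18 the opposite sign. By limma 0 of the 56 passed at an adjusted p under 0.05, against 0.343% of all 34945 probe sets. At an unadjusted p under 0.05 there were 5 (8.93%, against 14.2% of all probe sets), 1 each of Rrm2 (1.31), Cdc20 (0.69), Prc1 (0.52), Kif11 (0.48) and Tpx2 (-0.55), which are named after their values were seen. All sets had the same sign in 18 of the 32 genes. Of the 45 sets used, 6 have names that end in _x_at.

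Read mouse by mouse, the median centred level of the 45 genes was 0.01, 0.23, 0.01, 0.10 and 0.02 in OVE26 mice 1 to 5, against -0.07, -0.08, -0.15 and -0.11 in FVB mice 1 to 4. OVE26 mouse 2 stood above its group, with 36 of the 45 genes above their own mean over the 9 arrays, and FVB mouse 3 lowest, with 10 of 45. These values are a description, since 3 of the 45 genes differ between the groups.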

How the data were processed

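RNA of sorted podocytes from 5 OVE26 and 4 FVB mice was amplified with a NuGEN kit, labelled with biotin and read on 1 array per mouse, per the labels' protocols. The values were made with RMA and Partek, per the submitters' processing notes, whose versions were not given in these sources. The deposited numbers are linear intensities of probe sets, a scale inferred from how high they reach, and were turned into log2 values before anything else. The table holds 45101 probe sets on 9 arrays, of which 64 controls were left out. The platform annotation, which can be old, gives 1 gene symbol to 34945 probe sets, several to 932 and none to 9160. Of the 34945, 34741 matched the RefSeq gene table by gene identifier and 0 symbols changed. The brightest probe set by mean log2 intensity stood for each gene (9010 genes have several), with no filter on dim genes.

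Differences were fitted with lmFit and eBayes of limma 3.58.1 under R 4.3.3 (diabetic against normal with no other term, 2-sided, prior degrees of freedom 2.94) and adjusted by Benjamini-Hochberg over 18193 genes at 0.05. The script was tested on simulated data. Titles name separate mice, and p-values measure the spread between these arrays, which also holds differences between sorts and amplifications. No 2 arrays shared more than 4.08% of their values. Labels give neither sex nor batches. Marker scores are means of centred log2 values, compared by exact permutation over all splits of the 9 arrays into 5 and 4. The members and all lists were chosen with earlier results of these data known. Values of every mouse are given for genes with an unadjusted p under 0.05, the 4 largest differences, the 4 brightest genes and a set of 10 fixed names. From the wider and brakes lists, genes that passed or are among the 3 smallest p are named. Alternatives tried were leaving out dim genes, averaging probe sets, quantile normalization, array medians, a robust variance trend, array weights, the mouse number as a block, sex, distal and macrophage covariates, left-out arrays and other thresholds.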

Additional observations from a re-analysis of the deposited data

Results flagged for a closer look

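Among the 36 groups of values checked (18 genes in OVE26 and in FVB mice), 2 held a mouse far from the others of its group, and chance alone sets 1 mouse apart in about 1 of 20 such groups. The first was Pcna, whose level of 9.78 in OVE26 mouse 2 lay below the other 4 OVE26 mice with a gap of 0.753 of the group's range. The second was Cdk2, whose level of 4.55 in FVB mouse 2 lay below the other 3 FVB mice with a gap of 0.871 of the range.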

How the results depend on the processing

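The count of the 45 genes that were higher in OVE26 podocytes was 3 or 4 under the dim filter (which tested 20 of them, Rrm2 kept only through its OVE26 values), the mean of probe sets, quantile normalization, array medians, the trend, array weights, the sex covariate and an adjusted p under 0.1. In the same order, 128 (of 10916), 109, 80, 97, 128, 284, 33 (of 18189) and 267 of all genes were higher. The count of the 45 genes was 1 with the mouse number as a block, 1 without OVE26 2 and 4 together and 1 at an adjusted p under 0.01, where 19, 62 and 14 of all genes were higher, against 86 in the fit as reported. It was 0 with the distal or the macrophage covariate (0 and 2 of all 18193 genes passed there, and 1558 and 2760 had an unadjusted p under 0.05). Leaving out 1 array at a time gave 0 to 3. The count of lower genes was 0 throughout. The cause of these changes was not tested. Rrm2 did not pass with the distal covariate (2.31, adjusted p = 0.395 by limma) or the macrophage covariate (3.54, adjusted p = 0.141), and ranged from 3.30 to 4.00 over left-out arrays. The block, in which OVE26 mouse 5 has no partner, gave Rrm2 3.68 (adjusted p = 0.0404), Gmnn 1.02 (0.123) and Mki67 1.61 (0.102). The mouse numbers of the groups showed no pairing, with correlations of 0.13, 0.04, -0.21 and 0.01 between arrays of the same number. Without OVE26 2 and 4, Gmnn differed by 0.89 (0.0741) and Mki67 by 1.68 (0.0898).

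Of the 18 genes given mouse by mouse, signs turned for Mcm6 with the distal covariate (-0.41), Pcna with the macrophage covariate (-0.23), and Cdk4 with the mean of probe sets (0.07), array weights (0.14), the distal covariate (0.042) and without OVE26 2 and 4 (0.15), and Cdk4 ran from -0.24 to 0.17 over left-out arrays. Signs also turned in at least 1 setting for 14 of the other genes, whose reported differences were at most 0.39 in size. In the list of 120 genes, to which the same settings were applied after the data had been seen, 3 were higher and 1 lower with the dim filter (67 tested), the trend or array weights, 4 and 1 at an adjusted p under 0.1, 2 and 0 with the mean of probe sets, and 0 and 0 with the block, the sex, distal or macrophage covariate and at an adjusted p under 0.01. Over all genes, 128 were higher and 38 lower with the dim filter (10916 tested), 128 and 51 with the trend, and 284 and 112 with array weights. There were 267 and 108 at an adjusted p under 0.1 and 109 and 35 with the mean of probe sets, against 86 and 24 as reported. Left-out arrays gave 0 to 3 of the 120 higher and 0 to 1 lower, against 8 to 285 and 0 to 82 of all genes.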
